A study of Mus musculus with 14 samples.

Results

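The 6 genes described here, Tbx2, Tbx3, Tbx15, Tbx18, Tbx20 and Eomes, code for transcription factors with a T-box, and were measured by RNA-seq in 5 populations of mesenchymal cells sorted from mouse forelimb buds. They are 6 of the 17 genes with a T-box among the 24454 genes of the count table. The 6 were chosen from their read counts in these same 14 libraries, Eomes for its reads in chondroblasts alone, so their levels and differences are a description and carry no test. The fit covered all genes, but no p-value is given for the 6, and tests are reported only for genes that are not among them. Those genes come from lists that were also chosen with earlier results of these data known.

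All embryos carried the Sox9-IRES-EGFP allele, in which EGFP reports the activity of Sox9, on a mixed Swiss Albino background, and each library came from the pooled cells of many forelimb buds. Dead cells and cells with CD31, Ter119, CD45, EpCam, Gr1 or CD11b were gated out before any population was taken. At E10.5, 3 libraries were made of S9-JAG1+ limb mesenchymal progenitors (LMPs), which lack EGFP and SCA-1 and carry the Notch ligand JAG1. At the same stage, 3 libraries were made of S9-Pαhi LMPs, which lack EGFP, JAG1 and SCA-1 and carry much PDGFRα, and 2 of S9-SCA-1+ cells, numbered 2 and 3, which lack EGFP and JAG1. Osteo-chondrogenic progenitors (OCPs, S9+Pαhi) at E10.5 gave 3 libraries, and chondroblasts (S9+ and Col2a1+) at E11.5 gave 3. The labels list the same gate, Sox9+PDGFRαhi, for OCPs and chondroblasts, so the later stage and the chondroblast state cannot be told apart here. In such bulk samples, fewer cells that use a gene and less of its RNA in each cell cannot be told apart either.

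T-box factors bind DNA through a shared domain, the T-box, and most act on a small set of genes in a given tissue as activators or repressors. Tbx2 and Tbx3 are close relatives that mainly repress. In the limb bud they are known from the anterior and posterior margins, and Tbx3 is needed for posterior digits. Tbx15 and Tbx18 form another pair of repressors, which recruit Groucho-type corepressors, and both are known from proximal limb mesenchyme and the shoulder blade. Tbx20 is best known from the heart. Eomes is known from the primitive streak, from lymphocytes and from the developing cerebral cortex.

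The stretch of coding sequence that is most alike in all 6 genes is shown because it is the family feature, and because it shows how far short reads can tell the genes apart. It is the window of 60 bases, in frame, in which the poorest match of the other 5 genes to Tbx15 was best (GENCODE M21, GRCm38). Capitals mark the 31 bases that are the same in all 6 genes:
Tbx2: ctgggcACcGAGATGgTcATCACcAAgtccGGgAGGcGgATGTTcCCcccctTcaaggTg
Tbx3: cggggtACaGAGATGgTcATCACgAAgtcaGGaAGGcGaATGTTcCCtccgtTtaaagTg
Tbx15: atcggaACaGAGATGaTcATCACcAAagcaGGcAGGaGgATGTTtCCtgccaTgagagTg
Tbx18: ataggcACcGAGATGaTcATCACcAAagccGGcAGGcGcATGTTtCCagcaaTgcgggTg
Tbx20: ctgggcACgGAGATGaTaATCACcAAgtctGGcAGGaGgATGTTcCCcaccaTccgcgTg
Eomes: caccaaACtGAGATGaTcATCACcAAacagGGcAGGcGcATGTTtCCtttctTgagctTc

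Each window lies across the junction of 2 coding exons, with an intron between its first and last base. In Tbx2 it starts in exon 1 of 7 and ends in exon 2 (chr11:85833467-85834644, + strand), and in Tbx3 it starts in exon 1 of 8 and ends in exon 2 (chr5:119672370-119674050, + strand). In Tbx15 it joins exons 2 and 3 of 8 (chr3:99309009-99313037, + strand) and in Tbx18 also exons 2 and 3 of 8 (chr9:87727441-87729495, - strand). In Tbx20 it joins exons 2 and 3 of 8 (chr9:24769793-24770714, - strand), and in Eomes exons 1 and 2 of 6 (chr9:118479512-118480491, + strand). Within the window Tbx2 and Tbx3 shared 49 of 60 bases and Tbx15 and Tbx18 shared 50, while Tbx3 and Eomes shared 37. Over the whole coding sequences, the longest identical run in any of the 15 pairs was between 11 and 23 bases, with the 23 in Tbx15 and Tbx18. Reads were 50 bases long, and 0 windows of 50 bases from the transcripts of any of the 6 genes occurred in another of the 6.

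Other genes are a different matter. Of the 50-base windows of Tbx18 transcripts, 18.3% also occurred in other genes, D030062O11Rik on the opposite strand among them, which overlaps 20.6% of the exon bases of Tbx18. The share was 2.1% for Eomes, whose exons overlap Gm33460 over 2.84% of their bases, and 1.01% for Tbx3, where Tbx3os1 overlaps 1.74%. For Tbx20 it was 0.0834%, and 0 windows of Tbx2 and Tbx15 were shared. The sources used here do not say that strand was used in counting, so reads of Tbx18 and of D030062O11Rik cannot be told apart where they overlap.

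Totals ran from 20316583 to 29162751 reads per library, and 15125 genes passed the filter on low counts, all 6 T-box genes among them. Levels are given as CPM (reads of a gene relative to the reads of the library) on totals scaled by the TMM method, which adjusts for differences in RNA make-up, and between genes as RPKM, which also divides by transcript length. A count of 3 reads or fewer in a library, which is at most 0.149 CPM, is taken as not told from absence. Sox9 and Col2a1 were highest in chondroblasts and OCPs, Jag1 was highest in S9-JAG1+ LMPs and Ly6a, which codes for SCA-1, in S9-SCA-1+ cells, though at only 87 to 96 reads. The S9-SCA-1+ libraries also carried the migrating muscle precursor genes Pax3, Lbx1 and Met, with a sum over 7 such markers of 1500 CPM in both, against 1.93 to 11.4 CPM in the other populations, and they held little Pdgfra. The sum over 5 red blood cell markers was 90.6 CPM in S9-SCA-1+ replicate 2 and 2450 CPM in replicate 3, against 1.9 to 52.9 CPM in the other populations. Replicate 3 was also the lower S9-SCA-1+ library for Tbx3, Tbx15 and Tbx18, and the part of such cells in these levels was not tested.

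Tbx2 and Tbx3 were both highest in S9-Pαhi LMPs, at a mean of 254 ± 60.3 CPM and 253 ± 37 CPM (SD, n = 3), which was 3.08-fold and 2.5-fold the mean of chondroblasts, the next in order. Tbx2 stood at 311, 260 and 191 CPM in the 3 S9-Pαhi libraries, at 84, 92 and 71.7 CPM in chondroblasts, and at 50.7, 53.9 and 44.4 CPM in S9-JAG1+ LMPs. In OCPs it was 20.7, 27.9 and 25.5 CPM, and in S9-SCA-1+ cells 15 and 15.1 CPM. No 2 populations overlapped for Tbx2, so that its order of levels was S9-Pαhi, chondroblasts, S9-JAG1+, OCPs and S9-SCA-1+. With so few libraries a lack of overlap is common. Of the 15125 genes, 19.8% were higher and 19.9% lower without overlap in S9-Pαhi than in S9-JAG1+ LMPs. From S9-Pαhi LMPs to OCPs these shares were 14.9% and 11.8%, and from OCPs to chondroblasts 21.6% and 17.5%. Nothing is read from a lack of overlap alone, for Tbx2 or for the genes below.

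Tbx3 stood at 263, 284 and 212 CPM in S9-Pαhi LMPs, at 105, 119 and 79.7 CPM in chondroblasts and at 60.9, 58.5 and 63.8 CPM in OCPs. S9-JAG1+ LMPs had 65.7, 40.9 and 34.7 CPM and S9-SCA-1+ cells 19.7 and 13.5 CPM. Here OCPs and S9-JAG1+ LMPs overlapped, while the other neighbours in the order did not. The lowest S9-Pαhi library, replicate 3, was the lowest for both genes.

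**Figure D1:**
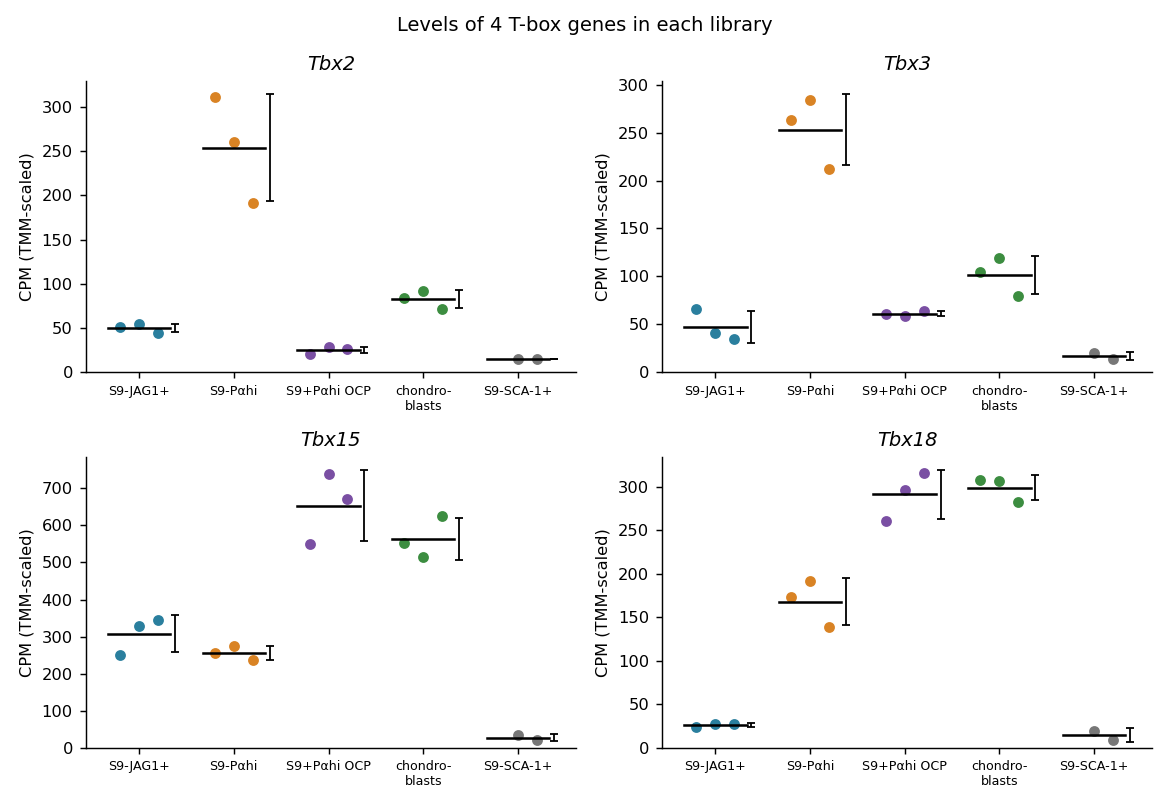
Level of Tbx2, Tbx3, Tbx15 and Tbx18 in CPM on TMM-scaled totals (y axis, from 0) in each of the 14 libraries, by population (x axis). Points are libraries, horizontal lines are means and the bars at their right are ± 1 SD (n = 3, and n = 2 for S9-SCA-1+ cells); Tbx2 and Tbx3 are highest in S9-Pαhi LMPs at means of 254 and 253 CPM, Tbx15 and Tbx18 in OCPs and chondroblasts, and all 4 are lowest in S9-SCA-1+ cells.

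The pair parted in OCPs. From S9-Pαhi LMPs to OCPs the difference was -3.36 ± 0.17 on the log2 scale (SE) for Tbx2 and -2.05 ± 0.22 for Tbx3, which left Tbx2 at 6.94 RPKM and Tbx3 at 12.6 RPKM in OCPs. The ratio of Tbx2 to Tbx3 in RPKM was 0.462 to 0.648 in the 3 OCP libraries and above 1 in all 11 others, where it ran from 1.03 to 1.79. From OCPs to chondroblasts the log2 difference was 1.74 ± 0.16 for Tbx2 and 0.73 ± 0.21 for Tbx3. Between the LMPs both genes were higher in S9-Pαhi than in S9-JAG1+ cells, by 2.36 ± 0.16 and 2.43 ± 0.22.

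Tbx15 was the most abundant T-box gene per length in OCPs, chondroblasts and S9-JAG1+ LMPs. Its levels there were 183 ± 26.9, 158 ± 15.9 and 86.2 ± 14.1 RPKM (SD, n = 3), and it was high in every population but S9-SCA-1+ cells. It stood at 550, 739 and 670 CPM in OCPs and at 553, 513 and 625 CPM in chondroblasts. In S9-JAG1+ LMPs it was 251, 327 and 345 CPM, in S9-Pαhi LMPs 255, 276 and 236 CPM, and in S9-SCA-1+ cells 34 and 20.8 CPM. OCPs overlapped chondroblasts and the LMPs overlapped each other, but there was no other overlap between populations. S9-SCA-1+ cells were below all other libraries for 10.1% of the 15125 genes. Such a share was not taken for OCPs and chondroblasts against the LMPs, and nothing is read from this lack of overlap.

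Tbx18, its close relative, was also highest in OCPs and chondroblasts, but unlike Tbx15 it differed between the LMPs. It stood at 261, 297 and 316 CPM in OCPs and at 308, 307 and 282 CPM in chondroblasts, which overlapped. S9-Pαhi LMPs had 173, 192 and 139 CPM, S9-JAG1+ LMPs 23.9, 27.3 and 27.8 CPM, and S9-SCA-1+ cells 19.8 and 8.48 CPM. Between the LMPs, Tbx18 was 6.39-fold higher in S9-Pαhi cells by mean CPM, whereas the mean of Tbx15 was 1.2-fold higher in S9-JAG1+ cells with overlapping libraries. In the same fit the log2 difference of S9-Pαhi from S9-JAG1+ LMPs was 2.68 ± 0.22 (SE) for Tbx18 and -0.27 ± 0.17 for Tbx15. The ratio of Tbx15 to Tbx18 in RPKM was therefore 13.8 to 16.3 in the 3 S9-JAG1+ libraries and 1.88 to 3.26 in all others.

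**Figure D2:**
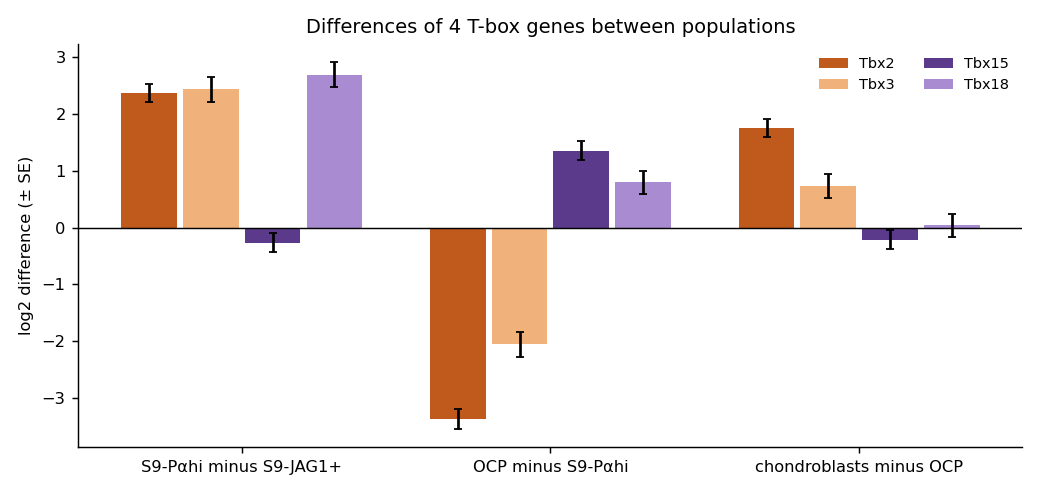
Differences on the log2 scale (y axis, bars from 0, error bars ± 1 SE of the fit over 14 libraries) of Tbx2, Tbx3, Tbx15 and Tbx18 between neighbouring populations in the order S9-JAG1+ LMPs, S9-Pαhi LMPs, OCPs and chondroblasts (x axis). Tbx2 and Tbx3 are higher in S9-Pαhi LMPs than in their neighbours on both sides, Tbx18 differs most between the LMPs (2.68), and Tbx15 between S9-Pαhi LMPs and OCPs (1.35).

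From S9-Pαhi LMPs to OCPs the log2 difference was 1.35 ± 0.17 for Tbx15 and 0.79 ± 0.20 for Tbx18, and from OCPs to chondroblasts it was -0.21 ± 0.16 and 0.04 ± 0.20. Set against the mean of the other 4 populations, S9-SCA-1+ cells were lower by 3.91 ± 0.21 for Tbx15 and 3.31 ± 0.25 for Tbx18, and by 2.24 ± 0.18 for Tbx2 and 2.48 ± 0.25 for Tbx3. Because they are so low, the S9-SCA-1+ cells weigh on any mean that holds them. Tbx15 in S9-Pαhi LMPs differed from the mean of the other populations by 0.12 ± 0.13 with the S9-SCA-1+ cells in that mean and by -0.91 without them, and in S9-JAG1+ LMPs by 0.45 ± 0.13 and -0.56.

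Eomes was read in chondroblasts and hardly anywhere else. The 3 chondroblast libraries held 183, 667 and 633 reads, which is 6.15, 22.8 and 24.9 CPM, with a mean of 17.9 ± 10.3 CPM (SD). The other 11 libraries held 0 to 3 reads each, and 7 of them held 0. Against the floor of 3 reads in the library where that floor is highest, the chondroblast mean was at least 120-fold higher and the lowest chondroblast library at least 41.3-fold higher. Per length it was 4.83 ± 2.76 RPKM, well under the 20.9 RPKM of Tbx3 in the same cells. Replicate 1 stood apart, at 0.258 times the mean of the other chondroblast libraries.

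Tbx20 was at or near absence, with 0 to 4 reads in 12 of the 14 libraries. All 3 OCP and all 3 chondroblast libraries held 0 reads, which allows up to 3 reads in each. S9-JAG1+ LMPs held 41, 4 and 1 reads, S9-Pαhi LMPs 0, 21 and 4, and S9-SCA-1+ cells 0 and 4. The highest library, S9-JAG1+ replicate 1, was at 1.76 CPM and the next, S9-Pαhi replicate 2, at 0.79 CPM. These floors cover counting error only.

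**Figure D3:**
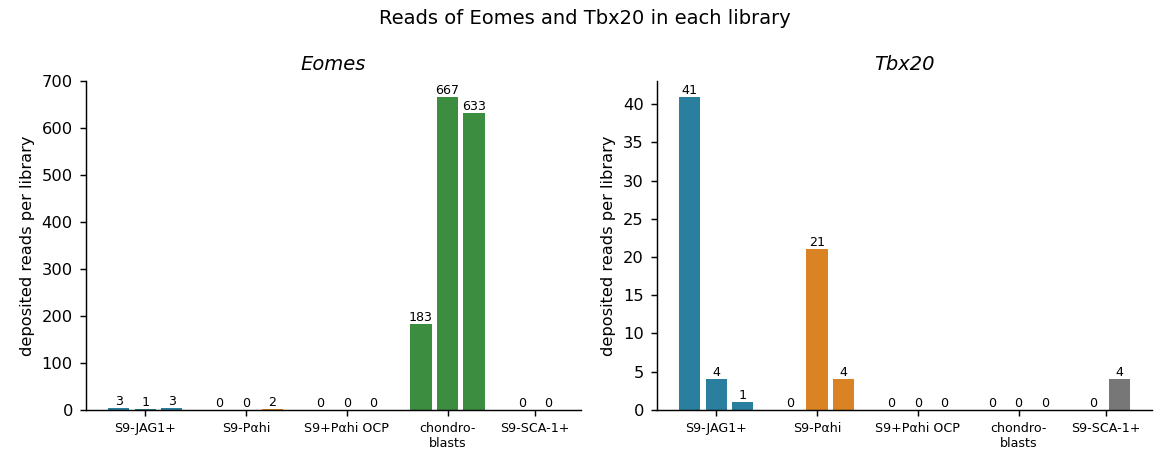
Reads of Eomes (left) and Tbx20 (right) as deposited (y axis, from 0), 1 bar for each of the 14 libraries with its count above it, in replicate order within each population (x axis). Eomes has 183 to 667 reads in the chondroblast libraries and at most 3 elsewhere, while Tbx20 has 41 reads in S9-JAG1+ replicate 1, 21 in S9-Pαhi replicate 2 and at most 4 in the others.

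Markers of other tissues that use these genes were read in the same libraries. Of 7 lymphocyte markers, Cd3e, Ncr1, Gzmb, Ifng and Prf1 were at 0 in all 3 chondroblast libraries, and the sum over the 7 was 0.157 to 0.274 CPM there, where Il2rb had 2 to 8 reads and Cd8a at most 2. Of 6 neuron and neuronal progenitor markers, 4 were over the floor in all chondroblast libraries, with a sum of 82.6 to 96.6 CPM. That sum was 134 to 154 CPM in OCPs, where Eomes had 0 reads. The part of such cells in the Eomes reads was not tested. For Tbx20, of 6 heart muscle markers the summed level was 0.238 to 0.335 CPM in S9-JAG1+ LMPs and Nkx2-5 had at most 2 reads. Replicate 1 of the S9-JAG1+ LMPs, the highest for Tbx20, was also the highest of the 14 libraries for the sum of 6 mesothelium markers, at 6.76 CPM against 0.595 to 2.46 CPM in the others. In that library Wt1 had 68 reads and Upk3b 49, while Upk1b and Msln were at 0, and the part of such cells in the Tbx20 reads was not tested. The second Tbx20 library, S9-Pαhi replicate 2, had 1.69 CPM for the same 6 markers, within the range of its group.

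Of the 6 genes, the limits used for calls (adjusted p up to 0.1, log2 difference of 1.2 or more in either direction, against the other 4 populations averaged) were passed upwards by Tbx2 and Tbx3 in S9-Pαhi LMPs, where 3.84% of the 15125 genes were called in either direction. In OCPs Tbx15 and Tbx18 passed upwards and Tbx2 downwards (5.01% of genes called), and in chondroblasts Tbx15, Tbx18 and Eomes passed upwards (12.7%). Without the S9-SCA-1+ cells Tbx15 was at 0.87 in OCPs and 0.59 in chondroblasts, both under the fold limit. Tbx18 was then at 1.4 and 1.45, and Tbx2 at -2.05 in OCPs. In S9-JAG1+ LMPs Tbx18 passed downwards, and Tbx20 upwards on reads that are mostly those of replicate 1 (10.6%). In S9-SCA-1+ cells Tbx2, Tbx3, Tbx15 and Tbx18 passed downwards (11.3%). Between neighbouring populations, Tbx2, Tbx3 and Tbx18 passed from S9-JAG1+ to S9-Pαhi LMPs (7.00%), Tbx2, Tbx3 and Tbx15 from S9-Pαhi LMPs to OCPs (4.84%), and Tbx2 and Eomes from OCPs to chondroblasts (7.77%). As the genes were chosen from these values, nothing is read from these counts.

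Taken per length, T-box RNA as a whole had a different make-up in each population. The summed RPKM of all 17 genes was 401 ± 18.8 in chondroblasts, 354 ± 39.7 in OCPs, 322 ± 41 in S9-Pαhi LMPs, 192 ± 16.5 in S9-JAG1+ LMPs and 39.5 ± 6.67 in S9-SCA-1+ cells (SD). Tbx15 alone made up 51.6 ± 2.2% of it in OCPs, 44.8 ± 3.72% in S9-JAG1+ LMPs, 39.4 ± 2.87% in chondroblasts and 22.4 ± 1.62% in S9-Pαhi LMPs. In S9-Pαhi LMPs Tbx15, Tbx5 and Tbx2 were near equal, at 22.4, 22.8 and 22% of the sum, and Tbx3 followed at 16.2%. Tbx18 made up 17.6 ± 0.926% in OCPs but 2.94 ± 0.0482% in S9-JAG1+ LMPs. Eomes reached 1.19 ± 0.656% in chondroblasts.

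**Figure D4:**
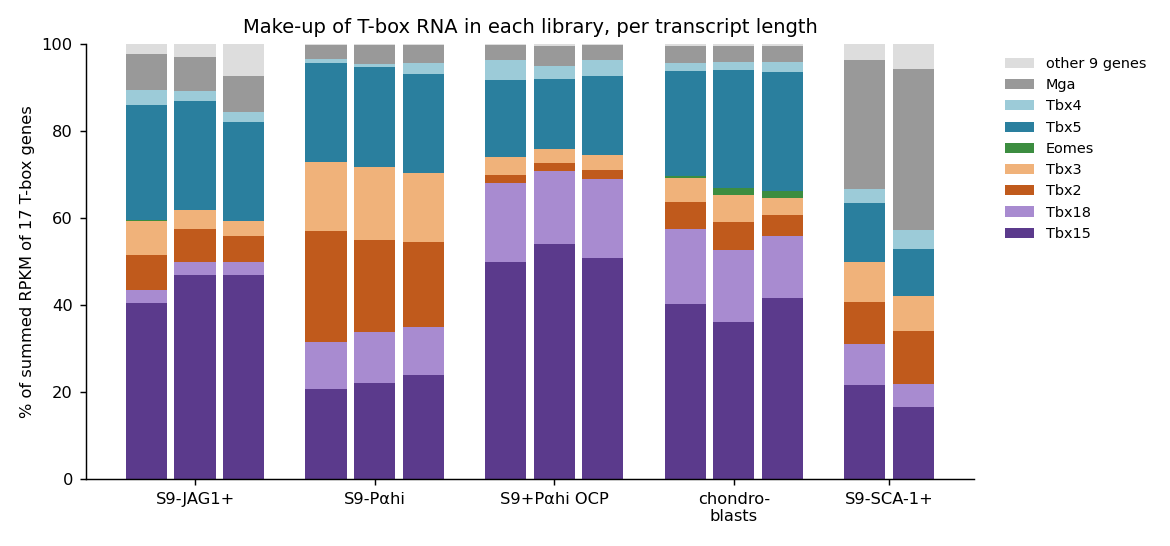
Share of each gene in the summed RPKM of the 17 T-box genes (y axis, percent) in each of the 14 libraries, 1 bar a library, grouped by population (x axis). Tbx15 takes 51.6% on average in OCPs, Tbx2 and Tbx3 together take more in S9-Pαhi LMPs than in any other population, and Mga takes 33.3% in S9-SCA-1+ cells, where the sum is lowest.

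Of the other 11 T-box genes, 9 passed the filter and were tested one by one, since they were not among those chosen. P-values are from the quasi-likelihood test of edgeR, adjusted by Benjamini-Hochberg over the 15125 genes. Tbx5, which sets up the forelimb, was high in all populations but S9-SCA-1+ cells. It was higher in chondroblasts than in the other 4 populations averaged by 1.72 ± 0.11 on the log2 scale (SE, edgeR adjusted p = 1.81e-08), which fell to 0.81 and under the fold limit once the S9-SCA-1+ cells were left out, and lower in S9-SCA-1+ cells by 3.81 (edgeR adjusted p = 1.52e-09). Tbx4, its hindlimb relative, stood at 45.2, 38.4 and 42.7 CPM in OCPs and was higher there than in the mean of the others by 1.70 ± 0.18 (edgeR adjusted p = 1.12e-05). In S9-SCA-1+ cells Tbx4 was lower by 2.23.

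T, the founding gene of the family and a marker of the primitive streak and tail bud, was read in S9-JAG1+ LMPs at 125, 247 and 601 reads and at 1 to 12 reads in every other library. Its log2 difference from the mean of the others was 5.62 ± 0.39 (edgeR adjusted p = 7.3e-08). Tbx6, which acts in the same presomitic tissue, was called in these cells too, at 1.89 ± 0.44 (edgeR adjusted p = 0.00324), but 141 of its reads were in replicate 3 against 33 and 21 in the others, and without that library the value was 0.70 (edgeR adjusted p = 0.19). Replicate 3 was thus the highest for both.

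Tbx22, a gene of the palate and somites, was called higher in chondroblasts than in the mean of the others (edgeR adjusted p = 3.46e-07) at 40, 46 and 67 reads, against 0 to 4 elsewhere, so it shared the pattern of Eomes at a lower level. Tbx21, known as T-bet from lymphocytes and the nearest relative of Eomes with Tbr1, had 55 and 79 reads in S9-SCA-1+ cells and 0 to 3 in the other 12 libraries, which is at least 15.9-fold higher against the floor (edgeR adjusted p = 7.59e-08). The 7 lymphocyte markers summed to 0.14 and 0.107 CPM in those S9-SCA-1+ libraries, replicates 2 and 3. The sum over 6 leukocyte markers was 0.385 and 0.926 CPM there, against 0 to 0.445 CPM in the other populations. Replicate 3 was thus the higher for this sum and for Tbx21, and the part of such cells in the Tbx21 reads was not tested. Tbr1 was not called in any of the 8 comparisons and stood at 0.122 to 0.754 CPM, and Mga, a large gene with both a T-box and another DNA-binding domain, was not called in any and had means of 174 to 217 CPM. Tbx1 was read at under 35 reads in every library and was called higher in chondroblasts than in OCPs at 3.35 ± 0.66 (edgeR adjusted p = 0.00218). Further calls on few reads, for Tbx1, Tbx21, Tbx22 and T, were lost when single libraries were left out. Tbx10 and Tbx19 did not pass the filter.

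Genes of the Groucho family, to which the corepressors of Tbx15 and Tbx18 belong, were read in all populations. Of 6 genes of this family only Tle2 was called in any comparison with the mean of the other 4 populations. It was lower in S9-JAG1+ LMPs by 2.36 ± 0.36 on the log2 scale (edgeR adjusted p = 0.000116) and higher in chondroblasts by 1.43 ± 0.27 (edgeR adjusted p = 0.000412). Its higher value in OCPs, 1.56, dropped to 1.03 without OCP replicate 2, and that in chondroblasts to 1.15 without chondroblast replicate 2, both under the fold limit.

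Genes of the shoulder girdle and proximal limb form the list nearest to the known roles of Tbx15 and Tbx18. For this list and those below, the shares of all 15125 genes called higher and lower were 2.88% and 7.7% in S9-JAG1+ LMPs. They were 1.53% and 2.31% in S9-Pαhi LMPs and 3.37% and 1.64% in OCPs. In chondroblasts they were 11% and 1.71%, and in S9-SCA-1+ cells 4.46% and 6.8%, each against the other 4 averaged. Of 16 genes tested, 9 were lower and 1 higher in S9-JAG1+ LMPs than in the other 4 averaged, with a list median of -1.41 on the log2 scale against -0.01 over all genes. The higher one was Lhx2 at 1.24, or 0.93 and not called without the S9-SCA-1+ cells. The largest differences in these LMPs were those of Emx2, needed for the shoulder blade, at -3.87, and of the proximal factors Meis1 at -2.12 and Meis2 at -2.05. In S9-Pαhi LMPs 9 of 16 were higher and 0 lower, with a median of 1.27 against -0.01, led by Pax1 at 3.42, Alx4 at 2.27 and Lhx2 at 2.14, though Emx2 at 0.45, Pax9 at 1.07 and Irx3 at 0.75 were not called without the S9-SCA-1+ cells. Irx3 was near the limit in the main fit too (1.21, edgeR adjusted p = 0.0995) and lost its call under 13 of 21 alternatives. In OCPs 7 were higher and 1 lower, with a median of 1.06 against 0.02, where Emx2 was at 3.68 and Irx5 at 2.70 while Pax9 was at -2.86. In chondroblasts 2 were higher, Pax9 at 5.06 and Emx2 at 3.00, and 0 lower, with a median of -0.21 against 0.05. S9-SCA-1+ cells were lower for 10 of 16, led by Pax1 at -5.21, Emx2 at -4.29 and Hoxc6 at -2.76, with a median of -1.74 against -0.01.

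Between neighbouring populations, 11 of the 16 girdle genes were higher in S9-Pαhi than in S9-JAG1+ LMPs and 0 lower, led by Emx2 at 4.28, Pax1 at 2.85 and Pax9 at 2.70. From S9-Pαhi LMPs to OCPs 1 rose, Emx2 at 1.76, and 3 fell, with Pax9 at -3.40 and Lhx2 at -2.63 the largest. From OCPs to chondroblasts Pax9 rose by 6.34 and 4 genes fell, with Irx3 at -2.31 and Irx5 at -2.17 the largest. Over all genes the shares called higher and lower were 4.42% and 2.58% in the first of these steps. They were 3.48% and 1.36% in the second and 6.6% and 1.16% in the third. The first step is also the one in which Tbx18 differed most. Tbx15 differed there by only -0.27 ± 0.17 (SE), and most in the second step, at 1.35 ± 0.17. A link between the list and either gene was not tested.

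Limb signalling genes known as targets or partners of Tbx2 and Tbx3 were tested as a second list, of which 15 of 16 passed the filter. In S9-Pαhi LMPs 4 were higher and 1 lower than in the other 4 averaged, led by Shh at 3.36, Msx2 at 2.75 and Msx1 at 2.25. Shh codes for the signal of the posterior margin, and Msx1 and Msx2 for homeobox factors that answer to BMP. S9-JAG1+ LMPs had 7 higher and 0 lower, led by Shh at 5.84, the BMP antagonist Grem1 at 2.68 and Msx1 at 2.09. The other 4 of these 7, Bmp2 at 1.06, Hand2 at 0.64, Fgf10 at 1.03 and Ptch1 at 1.06, were under the fold limit once the S9-SCA-1+ cells were left out. OCPs had 0 higher and 4 lower, with Shh at -4.35, Msx1 at -2.29 and the cell cycle inhibitor Cdkn1a at -1.86, and chondroblasts 1 higher and 5 lower, with Shh at -4.49 and Bmp2 at 2.84, while Msx1 was again among the lower. Cdkn1a was higher in S9-SCA-1+ cells by 5.78, and without them it was at -0.07 in S9-Pαhi LMPs, -0.46 in OCPs and -0.16 in chondroblasts and no longer called in any of the 3. Bmp4 in S9-Pαhi LMPs went from 1.48 to 1.15 in the same way.

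The step from S9-Pαhi LMPs to OCPs, in which both Tbx2 and Tbx3 were lower, had 5 of these 15 genes lower and 0 higher, with Shh at -6.17, Msx1 at -3.63 and Msx2 at -3.01. From S9-JAG1+ to S9-Pαhi LMPs Msx2 was higher by 2.09, while Shh at -1.99 and Grem1 at -1.85 were lower. From OCPs to chondroblasts only Bmp2 was called, at 3.70. The shares over all genes in these steps are those given with the girdle list. S9-SCA-1+ cells had 1 higher and 7 lower, with Hand2 at -3.82 and Bmp2 at -3.31 the largest after Cdkn1a.

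Early heart and lateral mesoderm genes, among which Tbx20 is known to act, formed a further list. Its median was 0.95 in S9-JAG1+ LMPs, 0.58 in S9-Pαhi LMPs, -0.58 in OCPs and -2.26 in S9-SCA-1+ cells. It was 0.76 in chondroblasts, where 11% of all genes were called higher. In S9-JAG1+ LMPs 5 of 10 tested were called higher, led by Gata5 at 2.62, Gata6 at 2.38 and Foxf2 at 1.80, with Hand1 and Hand2 after them. Gata5 had 136 reads in replicate 1, the library with 41 reads of Tbx20, against 21 and 11 in the others, and without that library its value was 0.78 (edgeR adjusted p = 0.244). Gata6 was at 34.9 CPM in replicate 1 and at 10.1 and 10.7 CPM in the others, and its value without replicate 1 was 1.55. Hand1 was also highest in that library, at 166 reads against 28 and 42, and its value of 1.35 was 0.14 without it (edgeR adjusted p = 0.833). Foxf2 was at 0.78 and Hand2 at 0.64 without the S9-SCA-1+ cells, both under the fold limit, so that of the 5 calls only that of Gata6 was kept under every alternative. The list was also called where Tbx20 had 0 reads. In chondroblasts 3 of 10 were higher, Foxf2 at 2.91, Mef2c at 2.77 and Gata4 at 1.77, and 1 was lower, Gata5 at -2.90, though Gata4 was at 1.05 and not called without the S9-SCA-1+ cells. In OCPs Gata4 was higher by 1.92 and 0 were lower, and in S9-Pαhi LMPs Foxf1 was higher by 1.33, or 1.05 and not called without the S9-SCA-1+ cells, and 0 were lower. In S9-SCA-1+ cells 8 of 10 were lower and 1, Isl1 at 2.39, was higher.

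Primitive streak genes, the early partners of Eomes, were mostly absent, as 4 of 11 passed the filter. Over all genes, 11% were called higher in chondroblasts and 2.88% in S9-JAG1+ LMPs. In chondroblasts Lhx1 was higher by 3.74 ± 0.36 on the log2 scale (edgeR adjusted p = 1.05e-06), at 48 to 72 reads, and Gsc by 1.53, which fell to 0.45 without the S9-SCA-1+ cells. Gsc was highest in OCPs, where Eomes had 0 reads, at 64.4, 82 and 62.9 CPM against 36.8, 37.7 and 29.8 CPM in chondroblasts, and it was called higher in OCPs by 2.78 (edgeR adjusted p = 5.82e-08). In S9-Pαhi LMPs Gsc was higher by 1.31, which was 0.24 without the S9-SCA-1+ cells, and in S9-JAG1+ LMPs it was at -1.22, or -0.96 and not called without S9-JAG1+ replicate 3. Mesp1, Foxa2 and Tdgf1 were at 0 in all chondroblast libraries, and Mixl1 had at most 2 reads. In S9-JAG1+ LMPs, where T was read, Cdx2 at 6.51, Evx1 at 5.51 and Lhx1 at 2.48 were called higher. Cdx2 had 29, 40 and 96 reads there, with replicate 3 again the highest.

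The genes most like each T-box gene were taken by Pearson's r of log2 CPM over the 14 libraries, among 12175 genes, as a description. The libraries of a population are not independent points, and r follows the differences between populations. Tbx2 was most like Msx2 at 0.946, Cnr1 at 0.932 and Hdac9 at 0.914, followed by Tbx3 at 0.908 and Angpt1 at 0.901. Tbx3 was most like Cnr1 at 0.969, Sdc2 and Hdac9 at 0.961, Sema6d at 0.941 and Slc8a1 at 0.929, so Cnr1, a cannabinoid receptor, and Hdac9, a histone deacetylase, were in the first 5 of both. Msx2 itself stood at 94.3, 98 and 77.2 CPM in S9-Pαhi LMPs and at 6.77 to 24.9 CPM in all other libraries.

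Tbx15 was most like Plpp3 at 0.988, Lama4, Plxdc2, Fbxo41 and Cttnbp2nl, and Tbx18 most like Dlg5 at 0.989, Fli1, Aff3, Synpo and Mfap4. None of these 5 were shared between them, and r between Tbx15 and Tbx18 was 0.794. Eomes was most like Jdp2 at 0.979, Ndrg2, Emp2, Smarca2 and the cartilage proteoglycan gene Acan at 0.959. The 5 for Tbx20, led by Rap1a at 0.840, rest on 1 or 2 libraries with reads and are no finding. Without the S9-SCA-1+ libraries, 3 of the 5 genes remained for Tbx2, Tbx3 and Eomes, and 0 for Tbx15 and Tbx18. By Spearman's rank correlation 1 remained for Tbx2, 2 for Tbx3 and 0 for Tbx15, Tbx18 and Eomes.

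Tbx2 (chr11:85832615-85841948, + strand) lies 227 bases from 2610027K06Rik, a long non-coding RNA gene, and 44419 bases from Tbx4. 2610027K06Rik stood at 5.04, 3.99 and 3.24 CPM in S9-Pαhi LMPs and at 1.34 to 3.18 CPM in the other libraries, so that population was the highest for both neighbours, while Tbx4 was highest in OCPs. Tbx3 (chr5:119670534-119684724, + strand) lies 364 bases from Tbx3os2, which had 17, 16 and 10 reads in S9-Pαhi LMPs, 23, 17 and 10 in chondroblasts and at most 4 elsewhere. On its other side lies Gm16063, with at most 4 reads. These are the 2 populations with the highest Tbx3.

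Tbx18 (chr9:87702800-87731260, - strand) lies between Cep162, 447264 bases away, and Nt5e, 596349 bases away. Cep162 stood at 40, 76.9 and 42.7 CPM in OCPs, at 31.3 to 40.6 CPM in S9-Pαhi LMPs and chondroblasts, at 24.4 to 26.4 CPM in S9-JAG1+ LMPs and at 18.9 and 21.2 CPM in S9-SCA-1+ cells. Like Tbx18 it was lowest in the last of these, over a narrower range. Nt5e was low, at 0.0396 to 0.335 CPM in S9-JAG1+ LMPs and 0.677 to 4.78 CPM elsewhere.

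Tbx15 (chr3:99240348-99354260, + strand) lies between Wars2, 19118 bases away, and Spag17, 531157 bases away. Wars2 was at 16.3 to 27.2 CPM in all libraries and Spag17 at 4.1 to 9.32 CPM. Neither showed the drop of Tbx15 in S9-SCA-1+ cells, where Spag17 had 5.56 and 5.24 CPM and Wars2 16.3 and 20.2 CPM. Eomes (chr9:118478186-118486132, + strand) lies 20064 bases from Golga4, which stood at 106 to 204 CPM in all 14 libraries, and 41138 bases from 4933432G23Rik, with at most 1 read. Tbx20 (chr9:24720812-24774303, - strand) lies 24355 bases from Dpy19l2, with at most 3 reads, and 333823 bases from Herpud2, at 34.4 to 46.8 CPM.

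The chondroblast libraries differed among themselves in ways that touch these genes. For Eomes in replicate 1, 0 of the 11049 genes that averaged 5 CPM or more in chondroblasts had a lower ratio. Acan, which was looked at because it is among the genes most like Eomes, had the next lowest, 0.272, at 3.43 CPM in replicate 1 against 10.3 and 14.9 CPM. That likeness was taken over the same libraries, replicate 1 included, so the shared low value is in part a result of the choice. Tbx2, Tbx3, Tbx15 and Tbx18 had ratios of 1.03, 1.06, 0.97 and 1.04 in that library.

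Replicate 3 stood apart for the girdle and proximal list. Pax1 was at 0.825 CPM there against 34.1 and 24.5 CPM, Irx3 at 5.58 CPM against 79.7 and 50.4 CPM, and Meis2 at 15.7 CPM against 115 and 86.6 CPM. Of the 16 genes, 11 were below both other chondroblast libraries, against 31.5% of all 11049 genes, and the median ratio to the mean of the others was 0.56 against 1.01. Tbx15 and Tbx18 had ratios of 1.17 and 0.917 in the same library, and Tbx2 and Tbx3 had 0.815 and 0.712. When single libraries were left out, the log2 difference of Irx3 between OCPs and chondroblasts ranged from -3.01 to -1.80 and that of Irx5 from -2.84 to -1.66, and both stayed called.

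**Figure D5:**
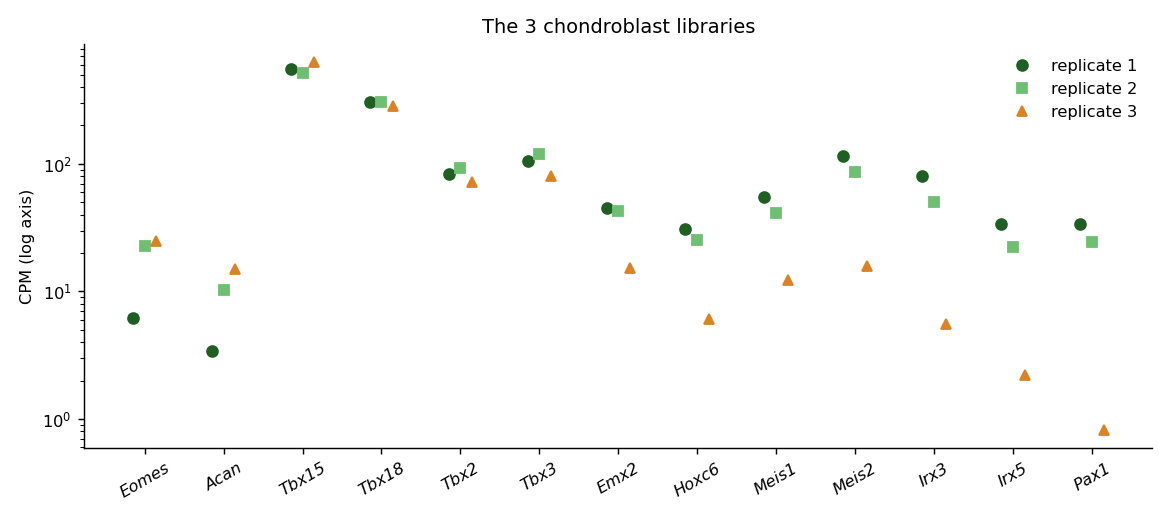
Level in CPM (y axis, log scale) of Eomes, Acan, 4 other T-box genes and 7 girdle and proximal genes (x axis) in the 3 chondroblast libraries, 1 symbol a replicate. Eomes and Acan are lowest in replicate 1 (Eomes at 6.15 CPM), the proximal genes Emx2 to Pax1 are lowest in replicate 3, and Tbx15 and Tbx18 differ little between the libraries.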

How the data were processed

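Levels were measured by poly(A) RNA-seq in 14 libraries of 5 sorted populations. According to their methods, the authors aligned single reads of 50 bases with STAR to mm10, kept 1 position for a read that fits several, and deposited the counts of reads that start in exons of RefSeq mRNAs, counted with QuasR, as whole numbers without normalization. Symbols were matched for 24374 of 24454 identifiers; the other 80 held 0.358% of the counts. All columns were used.

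The counts were tested with edgeR 4.0.16 in R 4.3.3 (TMM, filterByExpr by population, quasi-likelihood F test, 1 mean per population, all 14 libraries). P-values were adjusted by Benjamini-Hochberg over 15125 genes, with calls at adjusted p up to 0.1 and log2 differences of 1.2 or more in either direction. A gene's own SE is its log2 difference divided by the square root of F. Log2 CPM had a prior count of 2. The paper calls the replicates biological and reports that, for S9-SCA-1+ cells, sequencing quality sufficed in only 2 samples. The labels number replicates and do not say that these are separate litters, so p-values measure only the spread between these samples. Same-numbered libraries did not deviate together as a rule (26 pairs, r from -0.181 to 0.308, 4 over 0.1), so numbers were not used as pairs. Among pairs with different numbers r reached 0.413, for S9-Pαhi replicate 3 and OCP replicate 1. Whether libraries share pools of embryos under other numbers was not tested, and the model holds no such term. Replicates of a population differed by more than sampling noise.

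The 6 genes and all gene lists were chosen with earlier results of these data known. Named are the 6 genes, every other T-box gene that passed the filter, the 3 called genes of each other list with the largest fold in a comparison, the 5 genes most like each of the 6, and the nearest table gene on either side; Hand1, Hand2, Isl1, Acan, the other list genes given as lost calls and the marker genes were named after their values were seen. Transcripts and their sequences are from GENCODE M21 and gene positions from RefSeq, both of GRCm38 (mm10). Alternatives were DESeq2 1.42.0 (size factors and Wald test), library totals, other filters and limits, the replicate block, each library left out, and a fit without S9-SCA-1+ cells, the last added after the data were seen for levels and for pairs of populations. The procedure was tested on simulated data. Figures were drawn with matplotlib 3.10.9 in Python 3.11.15.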

Additional observations from a re-analysis of the deposited data

How the results depend on the processing

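The number of list genes called did not move by over 1.5 times under any alternative but one. With no limit on the fold change it was 45 instead of 29 for S9-JAG1+ LMPs, 30 instead of 16 for S9-Pαhi LMPs, 36 instead of 19 for OCPs and 37 instead of 19 for chondroblasts, each against the mean of the other 4, and 41 instead of 23 from S9-JAG1+ to S9-Pαhi LMPs and 32 instead of 15 from OCPs to chondroblasts. With the replicate block, the replicate number as a term in the model, these counts were 29, 18, 20, 19, 23 and 15, and the numbers do not pair the samples. Over all genes, a filter at a mean of 1 CPM left 1063 called instead of 1599 in S9-JAG1+ LMPs, 1148 instead of 1921 in chondroblasts, 470 instead of 758 in OCPs, 386 instead of 581 in S9-Pαhi LMPs, 664 instead of 1175 from OCPs to chondroblasts and 468 instead of 732 from S9-Pαhi LMPs to OCPs. That filter tests fewer genes. With each library left out, the list counts ran from 24 to 32, 13 to 21, 17 to 22, 17 to 21, 22 to 28 and 14 to 17 in that same order. Of the values of other T-box genes, 422 kept their call and 22 lost it, the latter for Tbx1, Tbx5, Tbx6, Tbx21, Tbx22 and T, and none reversed. Of the levels of Tbx2, Tbx3, Tbx15 and Tbx18, 336 moved by less than the spread between replicates and 20 by more. Of these 20, 16 are all the levels set against a mean in the fit without the S9-SCA-1+ cells. The size of these differences therefore depends on whether the mean holds those cells. The other 4 came without one of the S9-SCA-1+ libraries (Tbx15 in these cells at -3.60 without replicate 3 and -4.31 without replicate 2, Tbx18 at -2.82 and -4.05). Depth limits what can be said of Tbx20, Tbx1 and Tbx21, and the S9-SCA-1+ population has 2 libraries.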

Other observations

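Tbx5 exceeded Tbx4 per length in every library. The ratio of Tbx5 to Tbx4 in RPKM was 9.48 to 29.4 in S9-Pαhi LMPs, 12.2 to 14.4 in chondroblasts, 7.61 to 10.7 in S9-JAG1+ LMPs, 3.93 to 5.16 in OCPs and 2.41 to 4.4 in S9-SCA-1+ cells. Tbx4 in S9-Pαhi replicate 3 was at 21.5 CPM against 10.7 and 8.88 CPM in the other libraries of that population.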
